A study of Mus musculus with 21 samples.

Results

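The genes described here are Kit and Flt3 on mouse chromosome 5, each with the DNA around it, in 3 successive progenitors of innate lymphoid cells. Members were all peaks overlapping a fixed mm9 window, chr5:75800000-76100000 for Kit (300 kb) and chr5:148100000-148260000 for Flt3 (160 kb). The windows held 97 of the 215239 peaks in 4 deposited lists. The DNase lists gave 30 of these in ALP, 35 in EILP and 28 in ILCP, and the TCF1 list gave 4. Merging the DNase peaks wherever they shared at least 1 bp left 26 regions at Kit and 22 at Flt3, of 102384 in the genome. Kit lies on the plus strand at about chr5:75971000-76053000 (82 kb), and Flt3 on the minus strand at about chr5:148142000-148212000 (70 kb). These limits are approximate and came with the choice of windows, so distances from a gene start are approximate too. No mm9 annotation was used, and exons and introns are not given.

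Kit (CD117) and Flt3 (CD135) are class III receptor tyrosine kinases, related to the receptors for platelet-derived growth factor. Kit binds stem cell factor and Flt3 binds Flt3 ligand, and each receptor pairs up and switches on its own kinase when its ligand binds. In bone marrow, Kit is used by stem cells and many early progenitors, and mast cells keep it. Flt3 marks early lymphoid and dendritic cell progenitors, and many of their descendants lose it. Enhancers and promoters in use are depleted of nucleosomes, and DNase I cuts them readily.

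The progenitors came from bone marrow of C57BL/6 mice, whose ages are not in the labels. ALP, the all-lymphoid progenitor, was sorted as IL-7Ra+ and Flt3high cells lacking a4b7. EILP, the early innate lymphoid progenitor, was sorted as a4b7+ and Tcf7+ cells lacking Thy1. ILCP, the innate lymphoid cell precursor, was sorted as Thy1+ cells that were also Tcf7+, a4b7+ and IL-7Ra+. All 3 gates also required Kit and 2B4 and excluded lineage-positive cells, so Kit protein was selected at every stage, and Flt3 protein in ALP alone. The genotype label reads Tcf7EGFP/+ for ALP and ILCP and Tcf7EGFPnull/+ for EILP, although the source names call the cells WT. If both labels hold, stage and genotype cannot be told apart in any comparison with EILP. No RNA or protein was measured in the data used here.

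DNase-seq, which counts DNase I cuts, was made from 300 cells per library with 3 libraries per stage. The regions rich in cuts are DNase I hypersensitive sites (DHS). CUT&RUN, in which an antibody brings a nuclease to the bound protein, was made from EILP for TCF1, the DNA-binding protein encoded by Tcf7. It had 6 TCF1 and 4 IgG libraries of 500 cells, technical repeats included. Another 2 libraries carry conflicting labels, with titles naming TCF1 and descriptions naming the IgG track. The file header places their library number in the pooled control. If the titles hold, the control of the TCF1 peaks includes TCF1 libraries, and the effect of that on those peaks was not tested. Each list pools its libraries: the depth was 12420429 tags in ALP, 11236009 in EILP, 12681410 in ILCP and 2418839 for TCF1. With 1 list per stage there is no spread between mice or libraries, so no stage comparison could be tested. Height is the number of extended tags at a summit, also given as a scaled height for 1000000 tags of its list, and fold enrichment is height over local background as the authors' peak caller gave it. The 95% intervals are exact and cover counting error only, without allowance for height being the highest point of a called peak.

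The promoters are shown because each gene start was open at every stage. They are RefSeq sequences of build GRCm38.p6, matched by symbol for both genes, and run from 250 bases before the start to 50 after it. The positions differ from mm9 and were not matched to the peaks. Capitals mark matches to a motif searched on both strands.
Kit, chr5:75574737-75575036, plus strand: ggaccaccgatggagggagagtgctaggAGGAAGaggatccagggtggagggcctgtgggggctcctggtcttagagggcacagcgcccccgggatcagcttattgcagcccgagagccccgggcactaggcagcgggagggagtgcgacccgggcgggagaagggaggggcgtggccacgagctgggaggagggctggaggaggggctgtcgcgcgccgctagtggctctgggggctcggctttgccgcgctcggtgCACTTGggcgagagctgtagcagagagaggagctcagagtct
Flt3, chr5:147400440-147400739, minus strand: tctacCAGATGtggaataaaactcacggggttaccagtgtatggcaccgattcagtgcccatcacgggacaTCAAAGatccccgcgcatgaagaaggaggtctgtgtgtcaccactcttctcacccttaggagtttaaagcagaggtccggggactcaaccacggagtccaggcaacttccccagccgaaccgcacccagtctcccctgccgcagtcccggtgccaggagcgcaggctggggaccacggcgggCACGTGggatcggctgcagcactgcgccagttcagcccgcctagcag
The table holds 2 Kit entries, of which the first was used. GC content was 69.0% at Kit and 61.0% at Flt3, above 88.9% and 73.1% of 32851 promoters. The stretches held 20 and 18 CG pairs, in that order. The motif of ETS factors (AGGAAG) occurred in Kit at -222 and not in Flt3, and 35.4% of all promoters hold it. The motif of TCF1 and its relatives (CTTTGA) occurred in Flt3 at -179, on the minus strand of the sequence as printed, and not in Kit, and 16.0% of all promoters hold it. The E-box (CANNTG) occurred in Kit at position 9 after the start and in Flt3 at -245 and at position 4 after the start, and 72.3% of all promoters hold it. Neither stretch held the GATA letters AGATAA (11.2% of promoters) or the RUNX letters TGTGGT (16.8%). These are matches of letters in a 300-base stretch, and binding to them was not measured.

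The DHS of the Flt3 window were mostly shared by all 3 stages, and those of the Kit window mostly belonged to a single stage. Regions at Kit or at Flt3 are those of the windows, outside the genes too. At Flt3, 16 of 22 regions were open in ALP, EILP and ILCP alike (72.7%, 95% interval 49.8 to 89.3). Of these 16, 5 lay downstream and 4 upstream of the gene. At Kit, 2 of 26 were (7.69%, interval 0.946 to 25.1), and both lay within 1 kb of the gene start. Over the genome, 39.0% of regions were open in all 3 stages. Regions open in 1 stage alone came to 6 (ALP), 7 (EILP) and 6 (ILCP) at Kit, and to 1, 2 and 0 at Flt3. Regions of a window are neighbours on 1 stretch of chromosome and not independent draws, and the intervals do not allow for that.

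**Figure D1:**
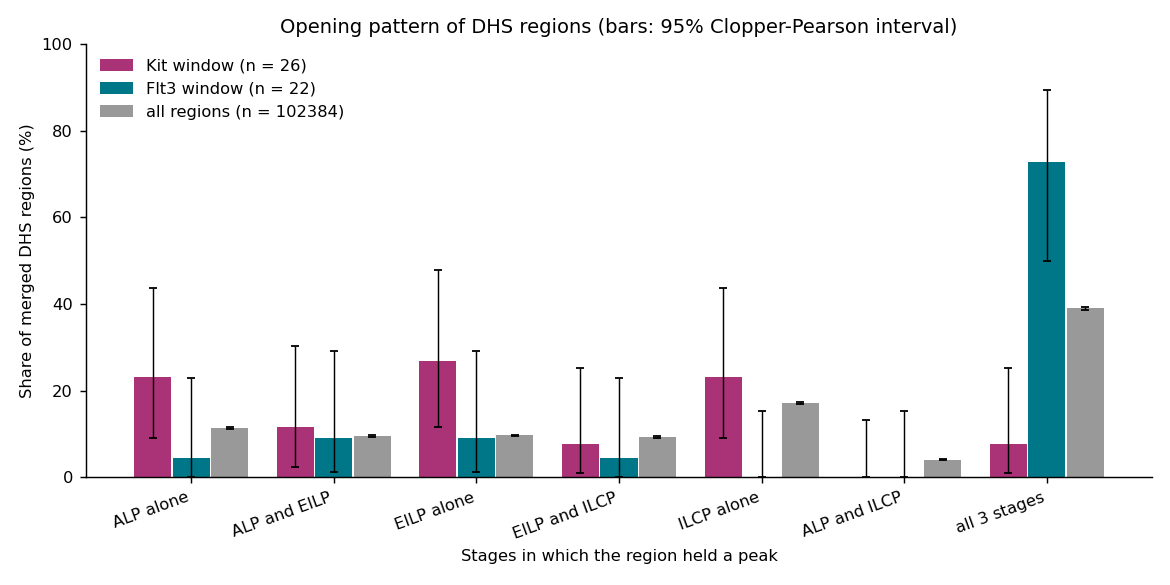
Grouped bars give the percent of merged regions by the stages in which they were open, with 95% intervals. The 3 sets are the Kit window (26 regions), the Flt3 window (22) and all 102384 regions. Open in all 3 stages were 7.69% at Kit, 72.7% at Flt3 and 39.0% of all.

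From stage to stage, most Kit regions changed and few Flt3 regions did. A region is called gained if it was open at the later stage and not at the stage before, and lost in the opposite case. At Kit, 9 of 14 EILP regions had no ALP peak, and at Flt3 3 of 21, against 28.1% of EILP regions in the genome. At the same step, EILP had no peak in 6 of 11 ALP regions at Kit and in 1 of 19 at Flt3, against 24.1% of all. At the next step, 6 of 10 ILCP regions at Kit and 0 of 17 at Flt3 were gained, against 30.6% of all. ILCP had no peak in 10 of 14 EILP regions at Kit and in 4 of 21 at Flt3, against 28.4% of all. In all 4 counts over the whole windows Kit lay above the genome-wide share and Flt3 below it. Within the gene bodies and 10 kb on each side, EILP gained 3 of 8 regions at Kit and 1 of 10 at Flt3, and had no peak in 1 of 6 ALP regions at Kit and 0 of 9 at Flt3. The Kit count of 1 of 6 lies below the genome-wide share of 24.1%, so for losses at EILP Kit was not above it in this narrower window. With 6 regions the count is too small to give a direction. At the ILCP step of the narrower window, 4 of 8 regions at Kit and 0 of 8 at Flt3 were gained, against 30.6% of all. Losses at ILCP there were 4 of 8 at Kit and 2 of 10 at Flt3, against 28.4%. When absence also required no peak within 500 bp, 3 of the 6 gains at ILCP were left at Kit. This is 30.0% of its 10 ILCP regions and near the 26.3% of all ILCP regions under the same rule. For gains at EILP, Kit then had 64.3%, against 24.4% of all. For losses it had 54.5% against 20.5% at EILP and 64.3% against 24.6% at ILCP. Flt3 stayed below the genome-wide share in all 4 counts under this rule.

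Kit regions were weaker than most, and weak regions changed more often in the genome. The median fold enrichment of Kit regions was 5.43 in ALP, 5.15 in EILP and 5.68 in ILCP, below the genome-wide medians of 7.01, 6.88 and 6.96. At Flt3 the medians were 7.27, 6.41 and 8.46, above the genome-wide median in ALP and ILCP and below it in EILP. In the genome, 59.0% of EILP regions in the weakest quintile by fold enrichment were gained, and 1.94% in the strongest quintile. Of the Kit regions open in EILP, 9 of 14 lay in the weakest 2 quintiles and 0 in the strongest. At Flt3, 7 of 21 lay in the weakest 2 quintiles and 6 in the strongest. Of the ALP regions, 8 of 11 at Kit and 9 of 19 at Flt3 lay in the weakest 2 quintiles of that list. Within the weakest quintile, 5 of 6 Kit regions and 3 of 5 Flt3 regions were gained at EILP, beside 59.0% of all. In the next quintile the counts were 2 of 3 and 0 of 2, beside 42.2% of all, and in the middle quintile 2 of 4 and 0 of 7, beside 25.8%. For losses at EILP, EILP had no peak in 3 of 5 Kit regions and 1 of 6 Flt3 regions of the weakest ALP quintile, beside 54.7% of all. In quintile 2 from the weakest, the losses were 2 of 3 at Kit and 0 of 3 at Flt3, beside 37.4%. They were 0 of 1 and 0 of 1 in quintile 3, beside 20.4%, and 1 of 1 and 0 of 5 in quintile 4, beside 6.90%. For losses at ILCP, ILCP had no peak in 6 of 6 and 2 of 5 of the weakest EILP quintile, beside 58.7%. In quintile 2 the losses at ILCP were 2 of 3 at Kit and 1 of 2 at Flt3, beside 41.8%. They were 2 of 4 and 1 of 7 in quintile 3, beside 26.4%, and 0 of 1 and 0 of 1 in quintile 4, beside 12.8%. Of ILCP regions in the weakest quintile, 2 of 3 at Kit were gained, beside 62.9%, and Flt3 had 0 regions there. In quintile 2 the gains at ILCP were 3 of 3 at Kit and 0 of 2 at Flt3, beside 47.8%. They were 0 of 1 and 0 of 6 in quintile 3, beside 28.4%, and 1 of 3 and 0 of 4 in quintile 4, beside 12.1%. The counts per quintile are small, and the part of strength in the contrast between the loci was not tested.

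The start of Kit was open at every stage as a pair of close DHS. The region over the start, chr5:75970858-75971152, had 19 tags in ALP, 27 in EILP and 26 in ILCP (scaled 1.53, 2.40 and 2.05), with fold enrichments of 6.92, 8.51 and 8.18. The region 0.799 kb inside the gene, chr5:75971647-75971959, had 30, 24 and 25 tags in the same stages (scaled 2.42, 2.14 and 1.97), with fold enrichments of 10.6, 7.62 and 7.69. The inner site was thus the taller of the pair in ALP, and the start site was slightly taller in EILP and ILCP. The start site over the inner site was 0.633 in ALP (interval 0.337 to 1.16), 1.12 in EILP (0.625 to 2.04) and 1.04 in ILCP (0.577 to 1.88). Every interval includes 1, so a difference between the pair was not detectable at this depth. EILP over ALP was 1.57 at the start site (interval 0.842 to 2.99) and 0.884 at the inner site (0.495 to 1.56). No DHS of any stage lay in the 47.5 kb before the start, the longest gap of the window.

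**Figure D2:**
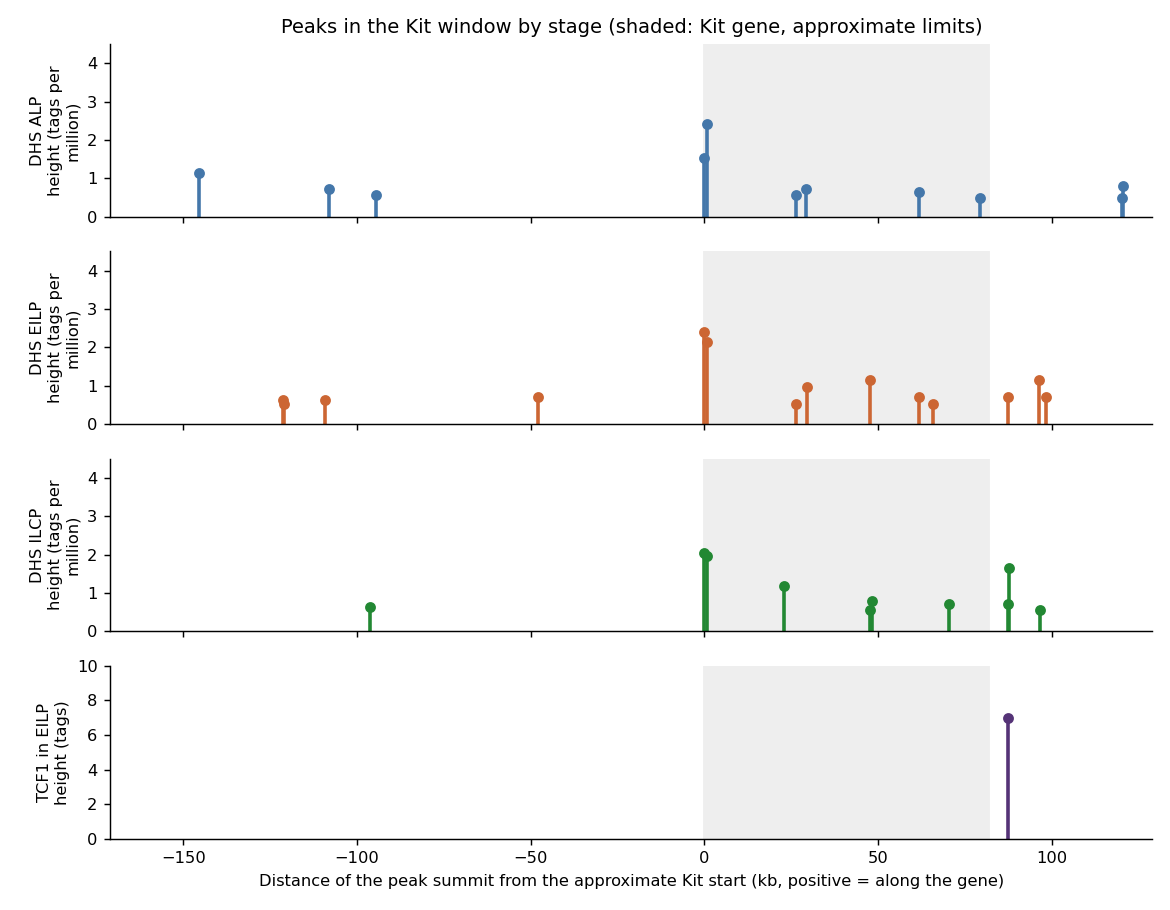
Peaks across the Kit window by distance from the approximate gene start (kb), as scaled summit height for DHS of ALP, EILP and ILCP and as tags for TCF1 in EILP, with the gene shaded. The pair at the start appears in all 3 stages, and the distal peaks differ between them.

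Away from the start, the Kit window held 24 regions, all open in 1 or 2 stages. By symbol order in the RefSeq gene table of GRCm38.p6, Pdgfra comes before Kit and Kdr after it. Regions outside the gene, upstream or downstream, therefore cannot be assigned to Kit from position. Of the 8 regions upstream of the start, 3 were open in ALP alone, 4 in EILP alone and 1 in ILCP alone. The strongest upstream region lay 146 kb away at chr5:75825392-75825581 and was open in ALP alone, with 14 tags (scaled 1.13, interval 0.616 to 1.89) and a fold enrichment of 9.01. Its nearest EILP peak was 24109 bp away.

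Inside Kit, 2 regions past the start pair stood above the median strength of a list. One at 23.0 kb from the start, chr5:75993888-75994094, was open in ILCP alone with 15 tags (scaled 1.18) and a fold enrichment of 7.88, more than 3 kb from any peak of the other stages. The other at 47.7 kb, chr5:76018473-76018833, had 7 tags in ILCP and 13 in EILP (scaled 0.552 and 1.16) and no ALP peak. ILCP over EILP was 0.477 there, with an interval of 0.161 to 1.29 that includes no change. A separate ILCP peak of 10 tags, chr5:76019153-76019394, stood 320 bp beyond the EILP peak. The 3 gene-body regions shared by EILP and ALP and lost in ILCP had 6 to 11 tags in EILP and 7 to 9 in ALP.

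Downstream of Kit lay the 1 TCF1 peak of the window, at a site called in EILP and ILCP. Region chr5:76058385-76058736, 87.6 kb from the start and past the gene's end, had 21 tags in ILCP and 8 in EILP (scaled 1.66 and 0.712). Its fold enrichment was 9.61 in ILCP and 5.29 in EILP, and the nearest ALP peak was 7940 bp away. ILCP over EILP was 2.33 (interval 0.990 to 6.07), higher than 99.0% of the ratios in the genome, and the interval just includes 1. A weak ILCP peak of 9 tags, chr5:76058212-76058371, stood 14 bp before the EILP peak as a region of its own. The TCF1 peak, chr5:76058461-76058571, had 7 tags (interval 2.81 to 14.4), a fold enrichment of 6.91 and a -log10 q of 5.95. Its summit was 31 bp from the DHS summit of EILP and 74 bp from that of ILCP. By fold enrichment it ranked above 91.5% of TCF1 peaks, 60.7% of which have 5 tags or fewer. A further site at 96.4 kb, chr5:76067277-76067554, was open in EILP alone (13 tags, scaled 1.16, fold enrichment 7.37). An ILCP peak of 7 tags stood 68 bp from it, as a region of its own.

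The other 18 Kit regions had at most 11 tags in any stage, below the list medians of 14 in ALP and 13 in EILP and ILCP. They had 6 to 10 tags in ALP (8 regions), 6 to 11 in EILP (9 regions) and 7 to 10 in ILCP (4 regions). Fold enrichments ran from 3.74 to 5.88, 3.85 to 6.78 and 4.40 to 5.96 in these stages. Of these 18, 5 were open in ALP alone, 6 in EILP alone, 4 in ILCP alone and 3 in ALP and EILP. The lowest peaks of the 3 lists have 5 tags.

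**Figure D3:**
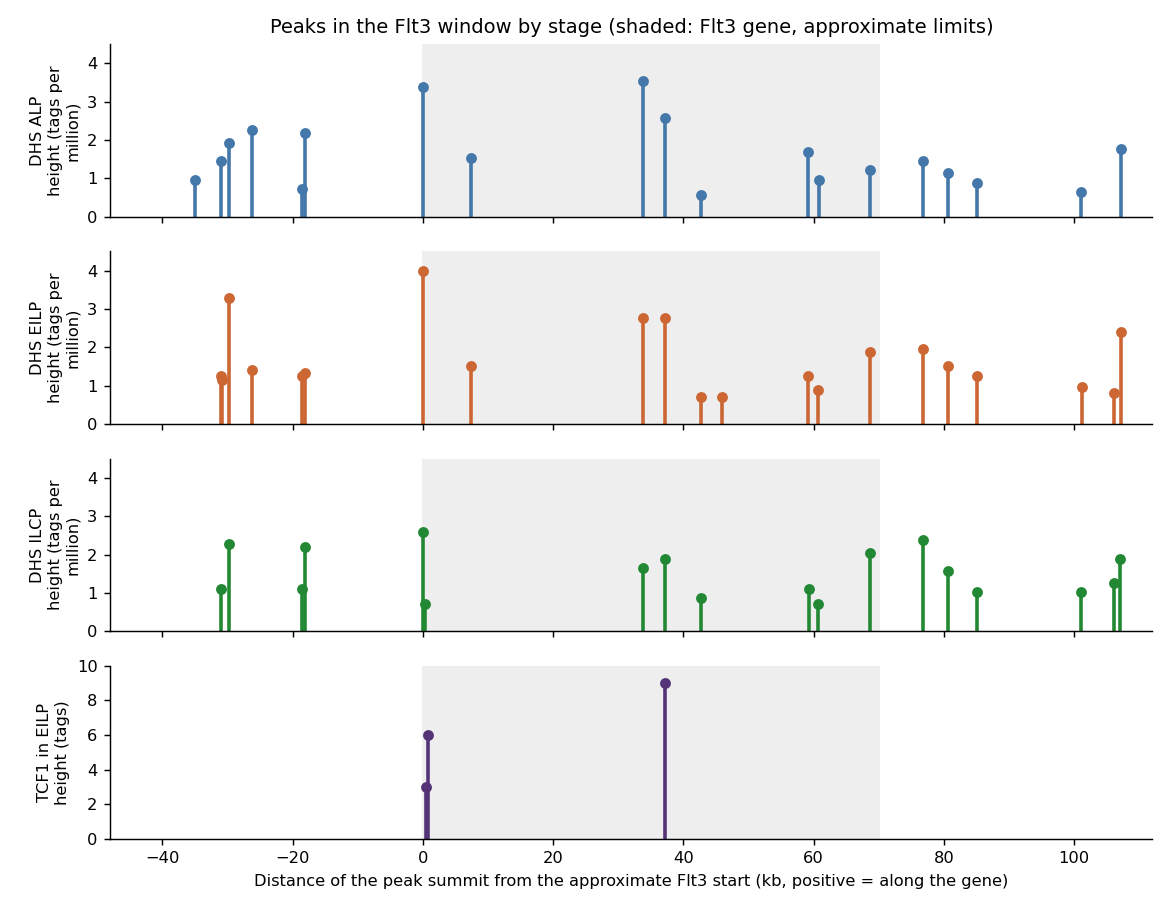
Peaks across the Flt3 window, drawn as for Kit, with distance counted into the gene from its approximate start on the minus strand (kb). Most positions carry a peak in all 3 DHS rows, and 3 TCF1 peaks lie at and inside the gene.

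The start of Flt3 carried its tallest DHS in EILP and ILCP. Region chr5:148211604-148212200 had 42 tags in ALP, 45 in EILP and 33 in ILCP (scaled 3.38, 4.00 and 2.60), with fold enrichments of 12.3, 14.2 and 13.8. All 3 stages were high there, with ILCP the lowest. ILCP over EILP was 0.650 (interval 0.402 to 1.04), and EILP over ALP was 1.18 (0.760 to 1.85). In ILCP the region held 2 peaks, the taller of 33 tags.

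Inside Flt3, a site 33.8 kb from the start was the only region of either window whose stage interval left out 1. Region chr5:148177917-148178344 had 44 tags in ALP, 31 in EILP and 21 in ILCP (scaled 3.54, 2.76 and 1.66), with fold enrichments of 12.8, 11.1 and 8.56. It was the tallest Flt3 DHS in ALP, and its scaled height was lower in EILP and lowest in ILCP. ILCP over ALP was 0.467 (interval 0.264 to 0.803), lower than all but 4.60% of the ratios in the genome. It was singled out among 62 ratios in the 2 windows. Its EILP over ALP ratio was 0.779 (interval 0.475 to 1.26) and its ILCP over EILP ratio 0.600 (0.328 to 1.08). Both of these intervals include 1, so neither single step was resolved. Its neighbour at 37.2 kb, chr5:148174670-148174978, had 32, 31 and 24 tags in ALP, EILP and ILCP (scaled 2.58, 2.76 and 1.89), and its ILCP over ALP ratio was 0.735 (interval 0.414 to 1.29). The longest stretch without a DHS in the window, 25.9 kb, ran from the 33.8 kb site back towards the start.

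At the far end of the gene, 1 region was lowest in ALP and highest in ILCP, within counting error. The region at 68.7 kb, chr5:148143217-148143431, had 15 tags in ALP, 21 in EILP and 26 in ILCP (scaled 1.21, 1.87 and 2.05). Its fold enrichment of 15.3 in ILCP was the highest of the window, above 95.4% of ILCP regions, beside 8.08 in ALP and 12.4 in EILP. ILCP over ALP was 1.70, with an interval of 0.866 to 3.45 that includes 1. EILP over ALP was 1.55 (0.760 to 3.23) and ILCP over EILP 1.10 (0.594 to 2.05), so no order of the stages was resolved.

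By place, regions open in both ILCP and ALP differed in direction. Past the 3' end of Flt3 all 5 were higher in ILCP, with ratios of 1.07 to 1.63 and a median of 1.40. In the gene body 2 were higher and 4 lower, with a median of 0.735 and a range of 0.467 to 1.70. Upstream, 3 were higher and 1 lower, from 0.762 to 1.52. The median over all such regions in the genome was 1.04. Each interval but that of the 33.8 kb site included 1, and the split by place was made after the values were known. By symbol order in the RefSeq gene table of GRCm38.p6, Urad, Cdx2 and Pdx1 follow on the 3' side of Flt3 and Pan3 and Flt1 on its 5' side, so a distal region of the window cannot be assigned to Flt3 from position.

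**Figure D4:**
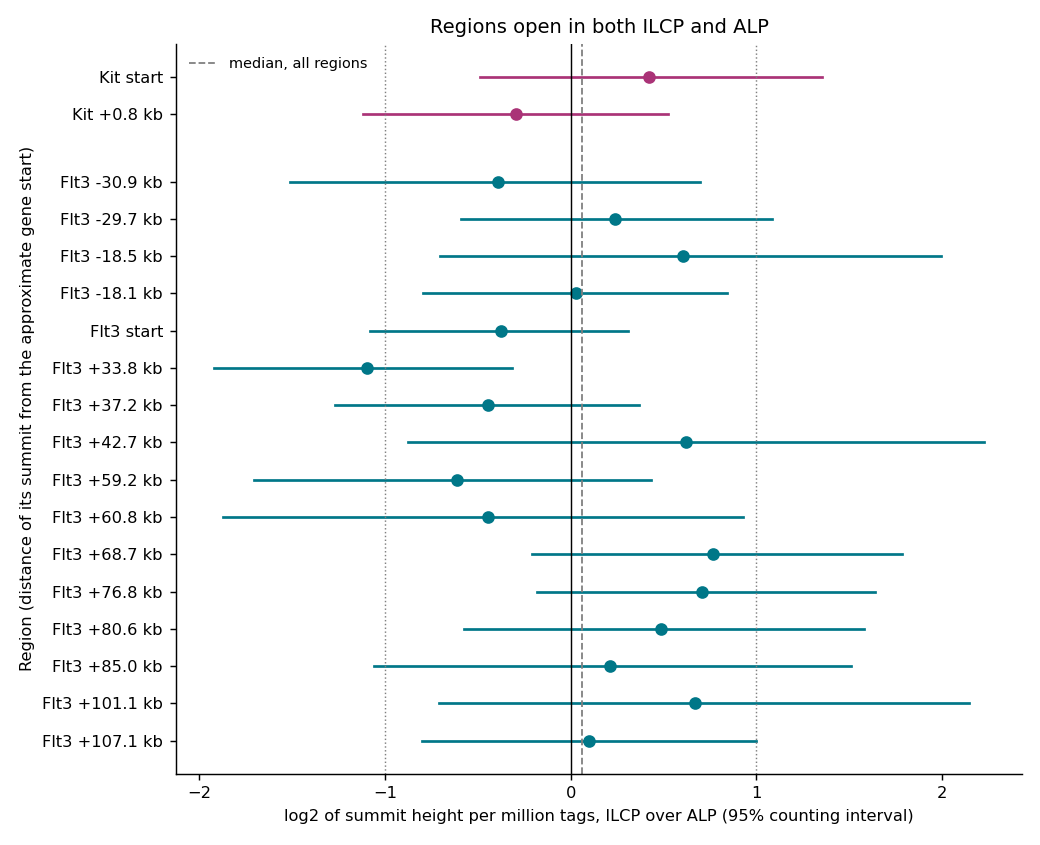
Points give the log2 ratio of scaled summit height, ILCP over ALP, for the 2 Kit and 16 Flt3 regions open in both stages, with 95% counting intervals. The interval of the Flt3 site at +33.8 kb alone lies wholly below 0.

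Elsewhere in the Flt3 window, 3 regions above the median strength of a list were missing from a stage. The region 7.40 kb inside the gene, chr5:148204230-148204754, had 17 tags in EILP and 19 in ALP (scaled 1.51 and 1.53) and no ILCP peak within 6850 bp. The region 26.2 kb upstream, chr5:148238022-148238303, had 16 tags in EILP and 28 in ALP (scaled 1.42 and 2.25), and its nearest ILCP peak lay 3316 bp away. These were the 2 regions of the window open in EILP and ALP but not in ILCP. Downstream at 106 kb, chr5:148105768-148105906 had 16 tags in ILCP and 9 in EILP (scaled 1.26 and 0.801) and no ALP peak, with the nearest ALP peak 768 bp away. Shared by all 3 stages were the region 18.1 kb upstream, chr5:148229922-148230250, with 27, 15 and 28 tags in ALP, EILP and ILCP, and the one at 107 kb, chr5:148104784-148105002, with 22, 27 and 24. At the 18.1 kb site EILP was the lowest stage, and ILCP over EILP was 1.65 (interval 0.854 to 3.33).

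The other 13 Flt3 regions comprised 10 open in all 3 stages, 2 in EILP alone and 1 in ALP alone. They had 7 to 24 tags in ALP, 8 to 37 in EILP and 9 to 30 in ILCP. Among the 10 shared ones, EILP over ALP ran from 0.737 to 1.72, ILCP over EILP from 0.694 to 1.22 and ILCP over ALP from 0.653 to 1.63.

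**Figure D5:**
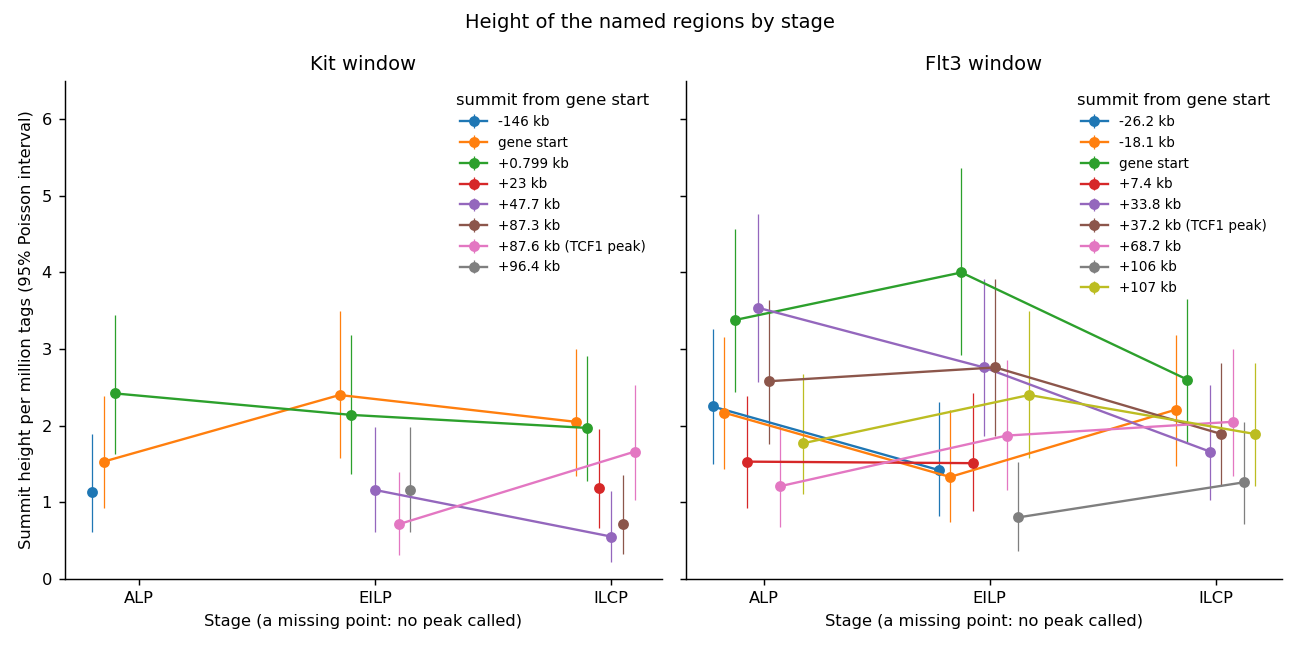
Scaled summit heights with 95% counting intervals for the regions described by position, at ALP, EILP and ILCP from left to right. The Flt3 site at +33.8 kb has 1.66 in ILCP, against 3.54 in ALP, and the TCF1-overlapping Kit site has 1.66 in ILCP and no ALP peak.

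Where both stages were open, 1 region at Flt3 and 2 at Kit differed by at least 2-fold in height. Such differences were uncommon over the genome too, and the Flt3 counts lay near the genome-wide shares. The Kit counts rest on 2 to 5 regions in each comparison. Of regions open in EILP and ALP, 0 of 5 at Kit and 0 of 18 at Flt3 were at least 2-fold higher in EILP (4.40% of all), and 0 and 0 were at least 2-fold lower (1.94%). Between ILCP and EILP, 1 of 4 Kit regions and 0 of 17 Flt3 regions were higher (2.39% of all), and 1 of 4 and 0 of 17 were lower (5.22%). The 2 at Kit were the TCF1-overlapping site and the site at 47.7 kb. Between ILCP and ALP, 0 of 2 and 0 of 16 were higher (4.22% of all) and 0 of 2 and 1 of 16 lower (5.71%), the 1 being the Flt3 site at 33.8 kb. By fold enrichment in place of height, 0 of these 3 sites passed 2-fold, and with heights scaled by their median, 1 of the 2 at Kit did. Where both stages were open, the median EILP over ALP ratio was 1.11 at Kit and 1.22 at Flt3, beside 1.11 in the genome. The median ILCP over EILP ratio was 0.888 at Kit and 0.886 at Flt3, beside 0.960 in the genome.

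TCF1 in EILP had 3 peaks in the Flt3 window beside the 1 at Kit. The first overlapped the DHS at 37.2 kb, chr5:148174722-148174934, with 9 tags (interval 4.12 to 17.1), a fold enrichment of 3.76 and a -log10 q of 1.59. Its summit lay 22 bp from the DHS summits of ALP and EILP and 25 bp from that of ILCP. Its background was 1.66 tags, 10.0 times the list median of 0.166, and its fold enrichment was higher than only 7.61% of TCF1 peaks. The other 2, chr5:148211081-148211206 (6 tags, fold enrichment 5.96, -log10 q 4.51) and chr5:148211388-148211544 (3 tags, fold enrichment 3.43, -log10 q 1.53), lay 842 and 544 bp inside the gene start. Neither overlapped a DHS: the gaps to the EILP peak were 588 and 250 bp, to the ALP peak 426 and 88 bp, and to the nearest ILCP peak 398 and 60 bp. At a -log10 q of at least 3, 1 of the 3 was left, the one 842 bp inside, and 0 lay in an EILP DHS. TCF1 peaks overlapped an EILP DHS in 1 of 1 cases at Kit and 1 of 3 at Flt3, beside 57.5% of all. Of EILP regions, 1 of 14 at Kit and 1 of 21 at Flt3 overlapped a TCF1 peak, beside 5.62% of all. With 1 region at each locus, these counts allow no ranking against the genome. TCF1 was measured in EILP alone, so its presence in ALP and ILCP is not known from these data.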

How the data were processed

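DNase-seq of ALP, EILP and ILCP and CUT&RUN of TCF1 in EILP were used as 4 deposited peak lists, each called on pooled libraries. Peak calling by the authors used MACS 2.1.1.20160309, per the file headers; the q cutoff was 0.05, fragments were set to 100 bp and duplicates beyond 1 tag were dropped. DNase peaks had no control and a background window of 10 kb, and the TCF1 control was a pooled file of 2919489 tags. Coordinates are in mm9, a build that the submitters' processing notes name, and the aligner is not given in the sources used here. The deposited signal is the pileup height at the summit, the deposited fold enrichment is a ratio to the local background, and the deposited −log10 q was used as a filter and a description. Pooling hides the spread between libraries, and weak peaks can cross the cutoff in 1 list and miss it in another.

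With Python 3.11.15, pandas 2.3.3 and scipy 1.17.1, peaks of the 3 DNase lists that overlapped by 1 bp were joined into regions, and a region counted as open wherever a stage's list had a peak in it. Height ratios used heights scaled to 1000000 tags of each list and exact conditional binomial intervals. Shares had Clopper-Pearson intervals, and heights exact Poisson intervals. Regions given in full lay within 2 kb of a start, were among the 3 with the highest fold enrichment of a list, lay within 1 kb of a TCF1 peak, were stage-restricted and above the list's median, or passed 2-fold. The members and lists were chosen with earlier results of these data known. Counting functions were tested on simulated data. Genes of the receptors' pathway were not counted, because no annotation of mm9 was used here. Alternatives changed the q cutoff, overlap, absence distance, scaling, fold limit and window.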

Additional observations from a re-analysis of the deposited data

How the results depend on the processing

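Of 82 alternative values, 60 stayed within 1.5 times the value reported and 22 did not. With the gene bodies and 10 kb on each side as windows, Kit had 6 open regions in ALP and 8 in EILP, with 3 gained and 1 lost at EILP and 4 lost at ILCP. Flt3 then had 9, 10 and 8 open regions in ALP, EILP and ILCP, with 1 gained and 0 lost at EILP and 2 lost at ILCP. Counting a region absent only with no peak within 500 bp left 3 gained Kit regions at ILCP. Requiring 50% of the shorter peak to be shared gave 1 gained Flt3 region at ILCP. At a 1.5-fold limit, EILP over ALP passed in 1 Kit and 6 Flt3 regions, ILCP over EILP in 4 Flt3 regions and ILCP over ALP in 7 Flt3 regions. Scaling by the median height gave 1 Kit region past 2-fold between ILCP and EILP. With fold enrichment in place of height, 0 Kit regions passed between ILCP and EILP and 0 Flt3 regions between ILCP and ALP. At a −log10 q of 3, 1 TCF1 peak was left at Flt3 and 0 of them lay in an EILP DHS. The narrower windows hold fewer regions by construction, and for the other settings the cause was not tested. No paired analysis was possible because every list was called on pooled libraries, and so no replicate could be left out. Depth limits the weakest DHS, of 6 to 10 tags, and the TCF1 peaks, of 3 to 9 tags.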

Other observations

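With the 3 stages merged, both windows held more DHS regions than most stretches of their length. Stage by stage this held clearly for Flt3, and Kit lay nearer the middle. The Kit window had 26 regions, against a median of 13 in the 6618 windows of 300 kb that held any, and more than 78.2% of them. The Flt3 window had 22 regions, against a median of 8 in 11139 windows of 160 kb, and more than 92.8% of them. Flt3 exceeded 97.0% of such windows in ALP, 97.9% in EILP and 94.5% in ILCP, and Kit 58.2%, 65.3% and 50.5%. Merged regions open in ALP spanned 5812 bp of the Flt3 window, those open in EILP 6087 bp and those open in ILCP 5030 bp. In the larger Kit window the spans were 2136, 3147 and 2429 bp in the same order. Each merged region was counted at its full width over the 3 lists, which can exceed the peaks of the stage itself.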
